A study of Caenorhabditis elegans with 4 samples.

Results

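The right end of the X chromosome held more NHR-11 peaks per Mb than the left or the middle part of X in Caenorhabditis elegans L1 larvae, while its peaks differed little from those elsewhere on X in median height, in width and in how often the replicates held them. It was taken as all peaks on X with a midpoint at or above 11800000 (build WS220), and it held 251 of the 547 series peaks on X and of 3006 in the whole list. The replicate lists held 107 such peaks of 1247 in replicate 1 and 112 of 1190 in replicate 2. The stretch runs to the last peak end on X, at 17684938, and so spans 5.88 Mb, or 33.3% of X measured to that point. The region was proposed by position after an excess of peaks there had been seen, so its density is given as a description.

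The peaks come from chromatin immunoprecipitation and sequencing (ChIP-seq), in which DNA cross-linked to a protein is collected with an antibody and sequenced. The 4 samples were 2 ChIP libraries, made with antibodies against GFP, and 2 input libraries, made from chromatin set aside before the antibody step. All came from hermaphrodite L1 larvae of strain OP305, which is mutant for unc119 through the allele ed3 and carries wgIs305, a transgene brought in by bombardment that joins nhr-11 to TY1, EGFP and FLAG tags and also carries unc119. The line was outcrossed 3 times, and the design text says that the fusion follows the pattern of nhr-11 itself. The stage label reads L1 26dC, the design text gives a temperature of 20 °C, and the animals were fixed with 2% formaldehyde. Whole larvae were used, so a peak is a sum over tissues, and peaks from a few cells cannot be told apart from weak peaks in many. No values of the input libraries were used here, and the site where the transgene inserted was not given.

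NHR-11 belongs to the nuclear hormone receptors, transcription factors that bind DNA through a zinc-finger domain and often respond to a small lipid-like ligand bound by a second domain. This family is greatly expanded in C. elegans, and many of its members have no known ligand. The X chromosome differs from the autosomes in this animal: its genes are down-regulated in hermaphrodites by a dosage compensation complex that spreads along X, and it lacks the clear division into a gene-rich centre and gene-poor arms that autosomes show. No genome or annotation of build WS220 was used here, so peaks are named by position alone, with no gene and no sequence.

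Peak height is −log10 of the q-value that the authors gave each peak, and a higher value means a smaller q. Depth and width of a peak enter its q-value beside its enrichment, and a height is therefore not an occupancy. Read depth is unknown, and intervals below are exact Clopper-Pearson 95% intervals that cover counting error only. Peaks are not replicates of a condition, and the 2 replicate lists are the only replicates. An exact sign-flip permutation test over 2 lists cannot go below a two-sided p of 0.5, so no p-value is given, and no difference below was tested. Whether the replicates came from separate cultures is not stated, so their spread may be technical.

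Peaks lay more densely at the right end in every list. The series list had 42.7 peaks per Mb at the right end and 25.1 in the rest of X, a ratio of 1.70. Replicate 1 had 18.2 peaks per Mb at the right end and 11.6 in the rest of X, and replicate 2 had 19.0 and 12.5. The ratios were 1.57 and 1.52, or 1.54 ± 0.0344 (SD, n = 2), so both replicates leaned the same way. This is no separate support, since the region was proposed after its excess had been seen. The replicate peaks are also largely the series peaks, as 105 of 107 in replicate 1 and 109 of 112 in replicate 2 met one. The left and middle parts of X differed little from each other, with 25.9 and 24.2 series peaks per Mb, so density did not climb steadily along the chromosome. The share of X peaks at the right end was 45.9% for the series list, against 33.3% of its length, and 43.9% and 43.1% for replicates 1 and 2. Peaks covered 2.09% of the right end and 1.31% of the rest of X in the series list.

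The excess was not carried by 1 window. The 11 full windows of 500 kb at the right end held a mean of 20.6 ± 4.61 series peaks (SD over windows), against 12.9 ± 4.65 in the 23 full windows of the rest of X. Right-end windows ranged from 12 to 28 peaks with a median of 20, and windows of the rest from 5 to 24 with a median of 13. Thus 10 of the 11 right-end windows lay above the median of the others, but the ranges overlapped, and 2 windows in the rest of X reached the right end's median. The densest window at the right end ran from 13300000 to 13800000, with 28 series peaks, 14 in replicate 1 and 15 in replicate 2. The emptiest full window ran from 16800000 to 17300000, with 12 series peaks and 6 in each replicate. The last, shorter window of 385 kb at the chromosome end held 24 series peaks, or 62.3 per Mb. The left end of X was the reverse, with 0 series peaks and 1 peak of each replicate list in its last 300 kb.

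**Figure D1:**
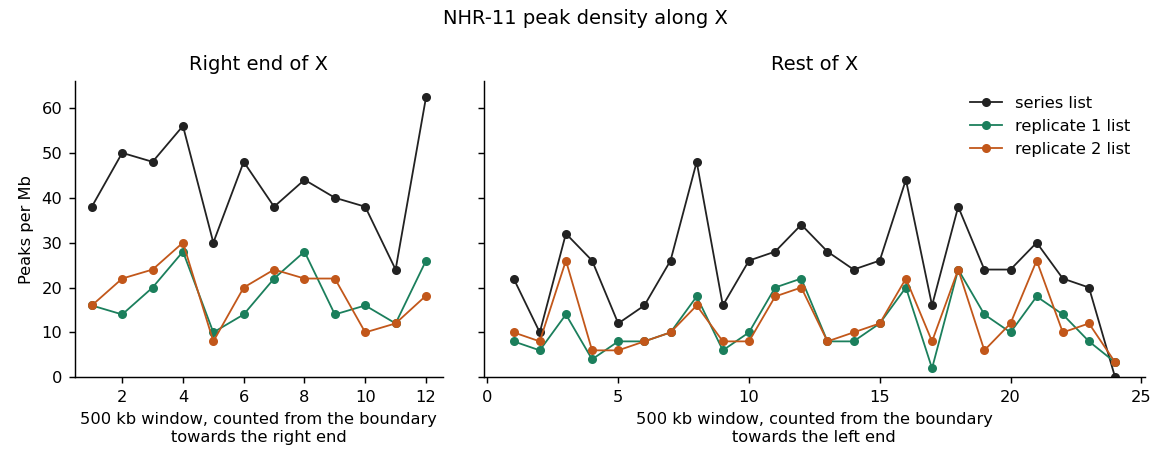
Peaks per Mb (vertical axis) in successive windows of 500 kb, counted away from the boundary towards the right end of X (left panel) and towards the left end (right panel); points are the series list and each replicate list. The last point of each panel is a shorter window. Full windows hold 24 to 56 series peaks per Mb at the right end and 10 to 48 in the rest of X, so the ranges overlap.

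Window counts in the replicate lists leaned the same way, and their ranges overlapped too. At the right end, the full windows of replicate 1 held 5 to 14 peaks with a median of 8, against 1 to 12 with a median of 5 in the rest of X. For replicate 2 they held 4 to 15 with a median of 11, against 3 to 13 with a median of 5. Across the 11 right-end windows the counts of both replicates gave a Pearson r of 0.715 and a Spearman rho of 0.713. This is a description over neighbouring windows of the same chromosome, which share the same libraries.

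The excess was small at the top of the series list and larger below it. The ratio of density at the right end to that in the rest of X was first taken over the highest peaks of the whole list. For the 10, 25, 50 and 100 highest it was 1.003, 1.20, 1.06 and 1.18, with no steady climb. These rest on 3 against 6, 6 against 10, 9 against 17 and 13 against 22 peaks, so they are coarse. The same cuts gave 0.668, 1.20, 1.29 and 1.40 in the replicate 1 list. In the replicate 2 list they gave 0.668, 1.34, 1.20 and 1.13. Among the first 500 peaks of the list, the right end held 43, or 7.31 per Mb, against 4.92 per Mb in the rest of X, a ratio of 1.49. The next 500 gave 34 peaks and a ratio of 1.48. The next 1000 gave 84 peaks and a ratio of 1.85, and the remainder of the list gave 90 peaks and a ratio of 1.79. The last 2 bands had the larger ratios and held 33.5% and 35.9% of the right-end peaks. Among peaks found in both replicates the densities were 13.1 per Mb at the right end and 8.14 in the rest of X, a ratio of 1.61.

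Median height differed between the regions by less than the spread between replicates. The median height was 5.37 at the right end (interquartile range 3.67 to 8.67) and 5.32 in the rest of X (3.76 to 9.78). The difference was 0.0493, and the replicates' own differences were −0.306 in replicate 1 and 0.199 in replicate 2, or −0.0535 ± 0.358 (SD, n = 2). The replicates disagreed on its direction. The upper quartile was lower at the right end in all 3 lists. In the replicate lists it was 8.65 and 10.7 in replicate 1, and 8.08 and 10.5 in replicate 2. Mean height was lower there too: 11.1 and 12.95 in the series list, 11.1 and 12.3 in replicate 1, and 10.4 and 11.9 in replicate 2. Towards the top of the distribution the lists disagreed: the 95th percentile was 40.2 at the right end and 58.5 in the rest of X in the series list. In the replicate lists it was 44.9 and 43.6 in replicate 1, and 44.1 and 40.5 in replicate 2, each with the right end slightly above the rest.

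Width differed little. Median width was 394 bp at the right end (interquartile range 268.5 to 618 bp) and 415 bp in the rest of X (265 to 647 bp). Replicate 1 gave 449 and 472 bp, and replicate 2 gave 421 and 442.5 bp, a difference of −22.3 ± 1.06 bp (SD, n = 2). The difference was thus repeated almost exactly in both replicates, but it was small beside the interquartile range. It also did not hold against each part of the rest of X: the series median was 424 bp in the left part and 386 bp in the middle part. Wider peaks were higher in both regions, with a Spearman rho of 0.653 over the 251 right-end peaks and 0.648 over the 296 others. Both measures come from the same reads, so this is a description only. At the right end 19 peaks were wider than 1000 bp and 10 were narrower than 100 bp, against 21 and 19 in the rest of X.

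The strongest peaks of the right end were each found in both replicates, close to the same place. The highest series peak of the whole data set lay here, at 14525244 to 14526427 (1184 bp), with a series height of 195, against which replicate 1 gave 126 and replicate 2 gave 103. The peak at 16929137 to 16931872 followed, with a series height of 133, and with 70.2 in replicate 1 and 63.2 in replicate 2. At 2736 bp it was also the widest of all 251. Its width was 2729 bp in replicate 1 and 2481 bp in replicate 2, so it was broad in every list.

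The next 4 had series heights of 86.9 to 115. The peak at 12362595 to 12363823 had a series height of 115, with 71.6 in replicate 1 and 67.3 in replicate 2. The peak at 13700152 to 13701234 had a series height of 106, with replicate heights of 71.5 and 64.7. With the peak at 16929137 these formed a level group, at 70.2 to 71.6 in replicate 1 and 63.2 to 67.3 in replicate 2. In both replicates the peak at 16929137 was the lowest of these 3, although it was the highest of them in the series list. The peak at 16056057 to 16056850 was narrower, at 794 bp, with a series height of 105, with 63.1 in replicate 1 and 52.9 in replicate 2. The peak at 11937026 to 11937904 had a series height of 86.9, with replicate heights of 48.7 and 58.2, and it alone of these 6 was higher in replicate 2.

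A second tier held 7 peaks of height 45.1 to 66.4 in the series list. The peak at 16681767 to 16682416 had a series height of 66.4, with 35.9 in replicate 1 and 36.9 in replicate 2. The peak at 15606650 to 15607954 had a series height of 65.1, with replicate heights of 33.8 and 34.4. Both were steady, at 36.4 ± 0.729 and 34.1 ± 0.442 over the replicates (SD, n = 2). The peak at 14818484 to 14819340 had a series height of 55.1, with 21.9 in replicate 1 and 33.9 in replicate 2. This was the largest relative difference between replicates among the 20 highest, a log2 ratio of −0.63. The peaks at 13144841, 17479345, 12200350 and 13514196 had series heights of 51.7, 47.1, 45.3 and 45.1, with replicate means of 25.1 ± 0.716, 22.9 ± 3.18, 22.0 ± 1.74 and 24.9 ± 6.57 (SD, n = 2). The last of these was the least steady of the 4, at 29.6 in replicate 1 and 20.3 in replicate 2.

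The other 7 of the 20 highest began at 14561005, 16611501, 15274977, 13350832, 16796587, 17505330 and 15840708, with series heights from 35.4 down to 20.1. Their replicate means ran from 9.35 to 16.3. All 20 were found in both replicates, and 14 of the 20 were higher in replicate 1. Each ranked 241 or better in replicate 1 and 344 or better in replicate 2. The midpoints in both replicates differed by a median of 43.3 bp and by at most 513.5 bp. The largest offset belonged to the peak at 14561005, which replicate 2 split into 2 peaks.

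These 20 peaks were spread over the right end rather than gathered. Successive midpoints among them were a median of 215410 bp apart, from 25890.5 to 825142 bp, and 13 of the 20 had no other series peak within 5000 bp. The 13 highest of the 251 peaks carried 40.1% of all height summed over the right end, against 36.1% for the 13 highest of the 296 in the rest of X. For the 20 highest the shares were nearly equal, at 46.5% and 45.9%. An equal count is also a larger part of the 251 peaks than of the 296. The 3 highest peaks in the rest of X, which began at 8035562, 2996139 and 4208342, had heights of 151, 148 and 140 in the series list.

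Replicate support was similar in both regions. Of the 251 right-end peaks, 77 (30.7%, 25.03 to 36.8%) overlapped a peak of both replicate lists by at least 1 bp, against 96 of 296 (32.4%, 27.1 to 38.1%) in the rest of X. Over all 3006 series peaks this share was 28.4%, so the right end stood near the background. A further 29 right-end peaks had a partner in replicate 1 alone and 31 in replicate 2 alone, which left 114 with none. At least 1 replicate held 137 (54.6%, 48.2 to 60.9%), against 168 (56.8%, 50.9 to 62.5%) in the rest of X and 49.5% over all chromosomes. The intervals of both regions overlapped widely for both measures.

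Support followed rank closely. All 43 right-end peaks among the first 500 of the series list were found in both replicates, as were all 58 in the rest of X. Of the next 500, 27 of 34 (79.4%, 62.1 to 91.3%) were found in both, against 33 of 46 (71.7%, 56.5 to 84.0%) in the rest of X. For the next 1000 these were 7 of 84 (8.33%) and 5 of 91 (5.49%). In the remainder of the list 0 of 90 right-end peaks were found in both (interval 0 to 4.02%), and 0 of 101 in the rest of X. Over all chromosomes, X included, the shares in these bands were 97.6%, 61.4%, 5.70% and 0.199%. In the second band both parts of X stood above that share, although the interval of the rest of X held it. At equal rank the intervals of the regions overlapped in each of the 4 bands.

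**Figure D2:**
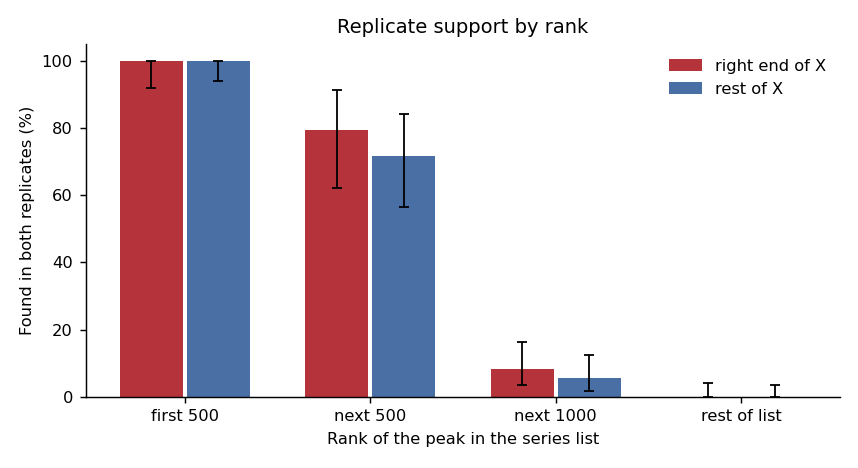
Share of series peaks found in both replicate lists (vertical axis, %) by rank band of the series list, for the right end of X and the rest of X; bars are shares and lines exact 95% intervals. Both regions fall from 100% in the first band to 0% in the last, with overlapping intervals throughout.

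Height and width went with support. At the right end the 77 peaks shared by the replicates had a median height of 13.5 and a median width of 671 bp. The 29 in replicate 1 alone had 6.01 and 393 bp, and the 31 in replicate 2 alone had 6.02 and 375 bp. The 114 in neither had 3.66 and 279 bp. A right-end peak found in both had a height of at least 6.42, and none found in neither was higher than 6.79. Series height was a median of 0.995 of the summed replicate heights over these 77, and each replicate list ends near a height of 3. A division of the classes by height was therefore largely built in and is no separate result. In the rest of X the classes overlapped more, with peaks found in both from 4.41 upward and those in neither up to 9.76. The highest found in neither lay at 16202146 to 16202540 (height 6.79), 14297232 to 14297512 (6.76) and 16943745 to 16944324 (6.33).

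The 3 highest peaks found in replicate 1 alone were weaker in their replicate than the 3 highest found in replicate 2 alone. This is 3 against 3 peaks, and the whole classes had nearly equal median series heights, 6.01 and 6.02. In replicate 1 only, the peak at 12201652 to 12202843 had a series height of 10.3 and a replicate 1 height of 3.65. Those at 12879738 and 14146534 had series heights of 8.45 and 7.42, with replicate 1 heights of 4.43 and 4.17. All 3 stood close to the cut-off near a height of 3 that ends each list. In replicate 2 only, the peaks at 12876862, 17456623 and 16147721 had series heights of 9.14, 8.43 and 8.31, with replicate 2 heights of 6.43, 5.14 and 6.14. These lay further from that cut-off than the 3 seen in replicate 1, and 2 of them were above the right-end median of replicate 2, 5.43.

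Viewed from the replicate lists, most right-end peaks were seen again. Of 107 replicate 1 peaks, 78 (72.9%, 63.4 to 81.0%) overlapped a replicate 2 peak, against 102 of 137 (74.5%, 66.3 to 81.5%) in the rest of X. Of 112 replicate 2 peaks, 79 (70.5%, 61.2 to 78.8%) overlapped a replicate 1 peak, against 102 of 148 (68.9%, 60.8 to 76.3%). Only 2 right-end peaks of replicate 1 and 3 of replicate 2 met no series peak. The rest of X had 5 such peaks in each replicate, of which 1 in each met a peak of the other replicate. One right-end site was likewise among both: a peak at 14908351 to 14909488 in replicate 1 (height 5.11, 1138 bp) and at 14908259 to 14909393 in replicate 2 (height 7.02, 1135 bp). No series peak had its midpoint within 54915 bp of it, although both replicates called nearly the same interval. The site was chosen after its values were seen. The series list lacked 12 peak numbers, replicate 1 lacked 3 and replicate 2 lacked 1, and whether one of them belongs to this site is not known here.

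Heights of the 77 peaks found in both replicates followed each other, less tightly than in the rest of X. Spearman's rho between replicate heights was 0.731 at the right end and 0.881 over 96 peaks in the rest of X, and Pearson's r on log heights was 0.911 and 0.946. Without the 2 pairs farthest from the median in replicate 1, rho was 0.709 and 0.873. Among the first 500 of the series list it was 0.738 over 43 pairs and 0.905 over 58. Among the next 500 it was −0.186 over 27 pairs and 0.0438 over 33. The bands are cut on series rank, and series height at the right end was a median of 0.995 of the summed replicate heights. A narrow band thus nearly fixes that sum. The rho in the lower band therefore cannot show whether heights there follow each other. The points share the same 2 libraries and a common cut-off, and the difference between regions was not tested. The log2 ratio of replicate 1 to replicate 2 heights had a median of 0.07 and an SD of 0.52 at the right end, against −0.02 and 0.43 in the rest of X.

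**Figure D3:**
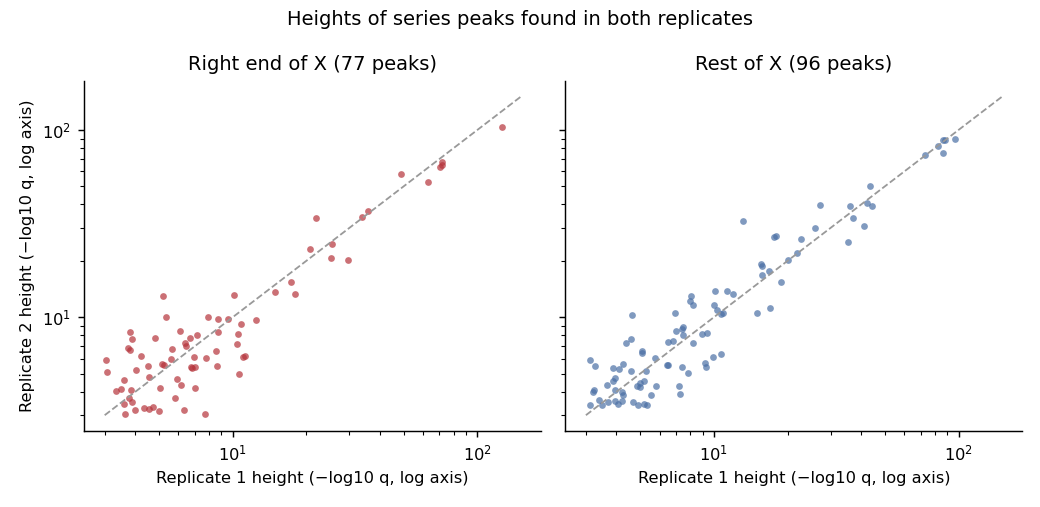
Replicate 2 height against replicate 1 height (−log10 q, both axes logarithmic) for series peaks found in both replicates, with 77 peaks of the right end of X on the left and 96 of the rest of X on the right; each point is a peak and the dashed line marks equal heights. The highest peaks lie near the line in both panels, and the right-end peaks below a height of 10 scatter widely round it, those of the rest of X as well.

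In 4 right-end peaks the replicates differed by more than a factor of 2 in height, against 2 in the rest of X. The peak at 15983175 to 15983591 had a height of 7.73 in replicate 1 and 3.06 in replicate 2. The peak at 13176982 to 13177962 went the other way, with 5.19 in replicate 1 and 12.9 in replicate 2. The peaks at 12509204 and 16726349 had replicate 1 heights of 3.80 and 10.6 and replicate 2 heights of 8.32 and 4.97. None of the 4 was among the 20 highest, and their series heights ran from 10.6 to 19.9. These 4 were chosen after their values were seen. Midpoints of the 77 shared peaks differed between replicates by a median of 53.5 bp at the right end, against 62 bp in the rest of X.

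Neighbouring peaks stood closer together at the right end, as peaks in a denser region must on average. Spacing thus largely restates the density, and it is given as a description too. The median distance between successive midpoints was 9821 bp at the right end and 20885.5 bp in the rest of X in the series list, a ratio of 0.470. Replicate 1 gave 24842 and 49818 bp, and replicate 2 gave 24833 and 44524 bp, a ratio of 0.528 ± 0.0418 (SD, n = 2). Mean spacings differed less, at 23372 bp at the right end and 38794 bp in the rest of X in the series list. The coefficient of variation of spacing, its SD over its mean, was 1.32 at the right end and 1.24 in the rest of X. In the replicate lists it was 1.28 and 1.14, and 1.23 and 1.07. Spacing at the right end was thus slightly more uneven than in the rest of X as a whole in all 3 lists. This did not hold against each part: the left part had 1.283 in replicate 1, against 1.279 at the right end. The middle part had 1.30 in the series list. The other values were lower: 1.17 for the left part in the series list, 1.01 for the middle part in replicate 1, and 1.15 and 1.01 in replicate 2.

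Short spacings made up much of this. At the right end 95 of 250 spacings (38%) were at most 5000 bp, against 68 of 295 (23.1%) in the rest of X. Replicate 1 gave 23.6% and 13.97%, and replicate 2 gave 26.1% and 17.0%. Long gaps were rarer: 36 spacings (14.4%) exceeded 50 kb at the right end, against 81 (27.5%) in the rest of X. The longest stretch without a series peak at the right end ran from 12702917 to 12860648, or 157730 bp. The next ran from 12018199 to 12158595 (140395 bp) and from 17216532 to 17356915 (140382 bp). Neither replicate list had a peak inside any of these 3 stretches. The longest stretch in the rest of X, from 7501277 to 7791729, was 290451 bp.

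**Figure D4:**
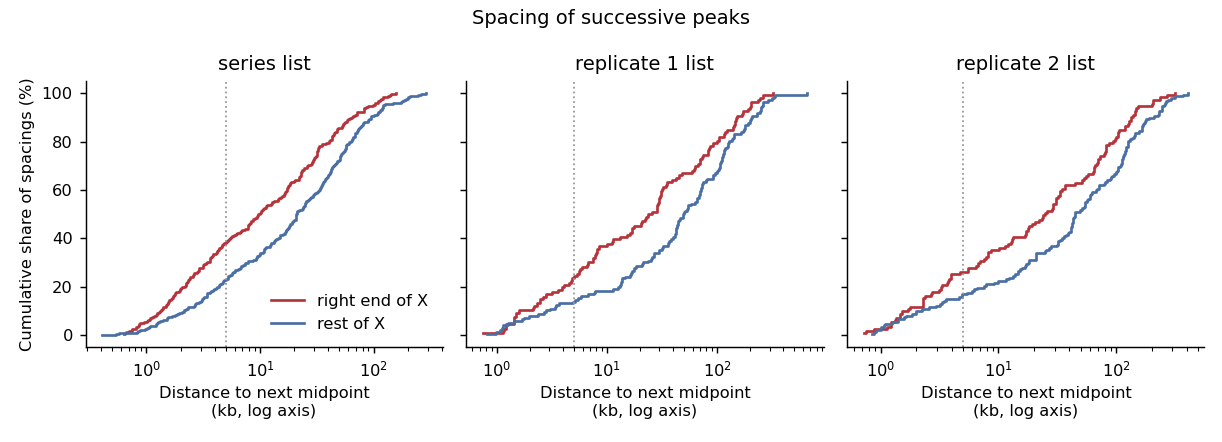
Cumulative share of spacings (vertical axis, %) against the distance between successive midpoints (kb, logarithmic axis) in the series and replicate lists, for the right end of X and the rest of X; the dotted line marks 5 kb. The right-end curve lies to the left of the other through most of its range in all 3 lists, with 38% against 23.1% of series spacings at or below 5 kb.

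Local clusters were defined as runs of at least 3 peaks in which each midpoint lay within 5000 bp of the next. The right end held 20 such clusters with 90 of its 251 series peaks (35.9%, 29.9 to 42.1%), against 16 clusters with 57 of 296 peaks (19.3%, 14.9 to 24.2%) in the rest of X. Clusters of at least 5 peaks numbered 7 at the right end and 3 in the rest of X. The replicates differed on the size of this contrast. Replicate 2 had 25% of its right-end peaks in clusters and 10.8% in the rest of X, while replicate 1 had 15.0% and 14.6%. Over both replicates the difference was 7.27 ± 9.78 percentage points (SD, n = 2), so it did not exceed their spread. A denser region also has more runs at any fixed distance: with the distance set to 0.25 of each region's own mean spacing, the shares were 37.5% at the right end and 31.1% in the rest of X.

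The largest cluster held 10 peaks in 12045 bp, from 12199375 to 12211419. Its highest peak, at 12200350 to 12201062, had a series height of 45.3, with 20.8 in replicate 1 and 23.2 in replicate 2, and the other 9 ranged from 3.22 to 14.02 in the series list. Of the 10, 4 had partners in both replicates, 4 in a single one (3 of them in replicate 1) and 2 in none. Some of these partners were shared: the peaks at 12203189 and 12205111 met the same replicate 1 peak. Those at 12206477 and 12206996 met the same replicate 2 peak, so the count of supported peaks exceeds that of separate replicate peaks. The cluster thus joined a single peak above 20 to lower ones, and replicate 1 had 6 of its own peaks there and replicate 2 had 4.

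The next largest held 9 peaks over 20133 bp, from 12869789 to 12889921, with no peak above 15.2. Each replicate alone accounted for 3 of these, 2 were shared by both and 1 by none, so most were seen in a single library. The cluster from 13347061 to 13358959 was different. Its 7 peaks, at series heights of 7.09 to 21.6, were all found in both replicates, and each replicate list also held exactly 7 peaks in it. Their heights were 3.33 to 10.8 in replicate 1 and 4.05 to 9.17 in replicate 2. It was the only one of the 20 right-end clusters in which every peak was found in both replicates, and it lay in the densest window. The rest of X had 1 such cluster among its 16.

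**Figure D5:**
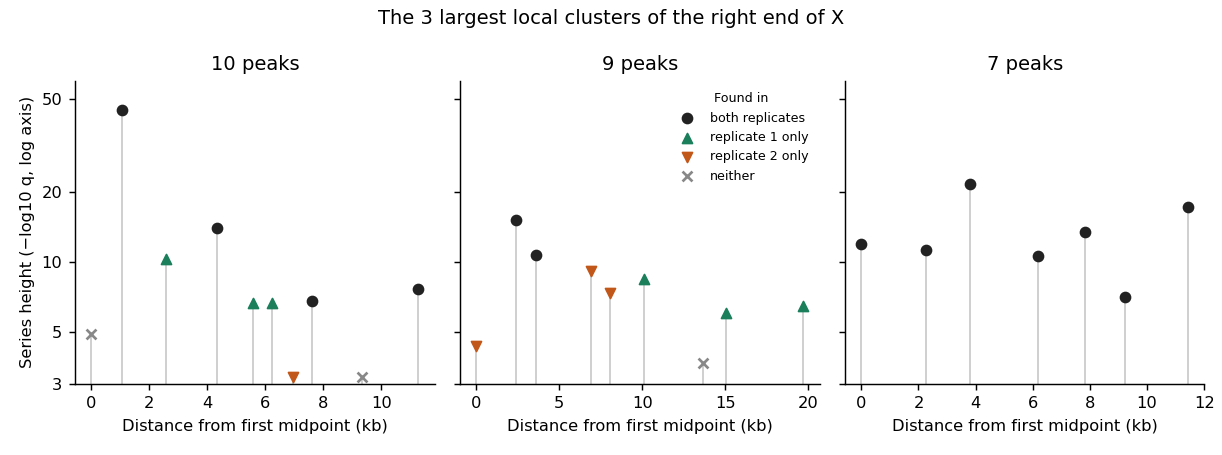
Series height (−log10 q, logarithmic axis) against distance from the first midpoint of the cluster (kb) in the 3 largest local clusters of the right end of X, with 10, 9 and 7 peaks; symbols show in which replicate lists each peak was found. One high peak of 45.3 dominates the first, the second holds mostly peaks found in a single replicate, and all peaks of the third were found in both.

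Clusters of 6 peaks lay at 12661019 to 12670764 and at 17451315 to 17462238. In the first, 2 peaks were found in both replicates, and heights ran from 3.04 to 13.8. The second had no peak shared by both: each replicate alone met 2 of its peaks and the last 2 met none, at heights of 3.59 to 8.43. Of the 20 clusters, 18 held at least 1 peak found in both replicates, and 10 had the minimum of 3 peaks. In the rest of X, 11 of 16 held such a peak. Clustered peaks at the right end had a median height of 6.67 and 38.9% (28.8 to 49.7%) were found in both replicates. Peaks with no other within 5000 bp had a median height of 5.09, and 29.7% (21.4 to 39.1%) were found in both. The 50 peaks in pairs were the lowest, with a median height of 4.61, and 18% (8.58 to 31.4%) of them were found in both, so height and support did not simply follow the number of neighbours. The interval for single peaks overlapped both others. The rest of X gave 35.1% for clustered peaks, 25.9% for those in pairs and 33.5% for single ones.

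Clustering was uneven within the right end. Cut into 3 pieces of 1.96 Mb, it had 96, 78 and 77 series peaks from the boundary to the chromosome end. The shares in clusters were 52.1% (41.6 to 62.4%), 35.9% (25.3 to 47.6%) and 15.6% (8.32 to 25.6%). In replicate 1 all 16 clustered peaks lay in the first piece (41.0% of its 39 peaks), and in replicate 2 the shares were 41.3%, 25% and 0%. In the rest of X, 6 pieces of 1.97 Mb had shares of 11.9 to 32.0%, all below that of the first piece here. In the replicate lists the contrast was smaller. The piece at 32.0% had 34.5% (17.9 to 54.3%) in replicate 1 and 33.3% (16.5 to 54.0%) in replicate 2. These intervals overlapped widely with those of the first right-end piece, at 25.6 to 57.9% and 27.0 to 56.8%. The third piece had nearly as many series peaks as the second but the lowest clustered share of the 3. Median height (5.81, 5.12 and 5.33) and the share found in both replicates (33.3%, 30.8% and 27.3%) varied little beside this. The cutting into pieces was chosen after the data were seen.

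Weak peaks tended to lie nearer to well-supported ones at the right end. A right-end peak found in neither replicate was a median of 20373 bp from the nearest peak found in both, against 35919 bp in the rest of X. Of these 114 peaks, 29 (25.4%, 17.7 to 34.4%) lay within 5000 bp of one, against 20 of 128 (15.6%, 9.81 to 23.1%). Peaks found in both were themselves closer together at the right end, at a median of 30987 bp against 80485 bp in the rest of X, and the part of this in the shorter distances was not tested.

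The narrowest right-end peaks were of 10 bp at 14760399 to 14760408, 16 bp at 15274404 to 15274419 and 26 bp at 17382985 to 17383010, with heights of 3.20, 3.45 and 3.07. The second met a replicate 1 peak of 1169 bp whose height of 18.0 belonged to the much stronger neighbour at 15274977, so its support came from that wide interval. In all, 2 replicate 1 peaks and 1 replicate 2 peak at the right end met more than 1 series peak, and none did so in the rest of X. Besides the peak at 16929137, the widest were at 12509204 to 12511329 (2126 bp) and 12203189 to 12204828 (1640 bp), both in clusters and with modest heights of 16.5 and 14.02. At the boundary itself, the first 2 peaks inside lay at 11841841 to 11841907 (height 3.43) and 11924064 to 11924460 (4.91), and the last 2 outside at 11797390 to 11798003 (4.14) and 11791815 to 11792183 (5.77).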

How the data were processed

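Anti-GFP ChIP peaks of L1 larvae were analysed from 3 lists: the whole series, ChIP replicate 1 and ChIP replicate 2. The deposited lists name PeakSeq as their source and WS220 as their build, per the file headers. The sources used here do not give the aligner, the PeakSeq version, the use of the input or any pooling for the series list. The score deposited by the authors was read as a q-value, since score times peak number never fell with the number, and it stayed under 0.001. Height was computed as −log10 of it. Peaks on X were split at a midpoint of 11800000. Widths, midpoints, spacings, runs and overlaps of at least 1 bp were computed with pandas 2.3.3 and NumPy 2.4.6 in Python 3.11.15, intervals with SciPy 1.17.1 and plots with matplotlib 3.10.9. Where a series peak met several replicate peaks, that with the lowest q was paired with it. X was measured to its last peak end over the lists, for want of a length in the headers. Counting of overlaps, runs and merged peaks was tested on simulated data. Read depth is unknown.

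Peaks were named by position: the 20 highest, the 3 widest and narrowest, the 3 highest in each class of partial or absent replicate support, the 2 on either side of the boundary, the 5 largest clusters, the 3 longest stretches without a peak and the densest and emptiest full windows of 500 kb. For the rest of X only the 3 highest were named. The region, these rules and the alternatives were chosen with earlier results of these data known. Alternatives covered the list, the q threshold, the boundary, merging, overlap, clusters and the summary used. No fit across features was made, and peaks were resampled in no test.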

Additional observations from a re-analysis of the deposited data

How the results depend on the processing

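Of 62 alternatives, 23 moved a value by no more than the spread between the replicate lists (or its exact interval for the share found in both replicates, or 0.05 for rho) and 39 by more; the spread over 2 lists is a narrow yardstick, 1.06 bp for width. The cause of each shift was not tested. The region was proposed after its excess of peaks had been seen, so a density ratio above 1 was largely set in advance. The density ratio, 1.70 in the main comparison, stayed above 1 in all 10 alternatives. It was 1.61 for peaks found in both replicates, 1.63 with the boundary 0.5 Mb to the left and with gaps of 500 bp merged, 1.64 and 1.76 against the left and middle parts of X, 1.43 against the autosomes, and 1.52 to 1.57 over the replicate lists taken alone. The spacing ratio stayed below 1 in all 9: 0.385 for peaks found in both, 0.402 with q under 1e-05, 0.519 with merging, 0.405 against the middle part, and 0.499 to 0.558 over the replicate lists. Spacing largely restates density, so that direction was largely set in advance as well.

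The median height difference (0.0493) had no stable direction, and the difference was above 0 in 5 of 11 alternatives. It was −1.71 for peaks found in both, −0.918 with q under 1e-05, −1.86 for means, −18.3 for 95th percentiles, and −0.306 to 0.199 for medians over the replicate lists. The mean and the upper quartile of height were lower at the right end in all 3 lists. The width difference (−21 bp) was −16 bp for peaks found in both, −12 bp with q under 1e-05, −22.5 and −24.5 bp with the boundary 0.5 Mb to the left and right, −32.8 bp for means, −174 bp for 95th percentiles, −30 and 8 bp against the left and middle parts, and −23 to −21.5 bp over the replicate lists.

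The clustered share (35.9%) was higher at the right end in all 12 alternatives, though by only 0.355 percentage points in replicate 1. All but the setting scaled to mean spacing used a fixed distance, so with a denser region this direction was largely set in advance too. The scaled setting gave 37.5% at the right end and 31.1% in the rest of X, in the series list alone. The right-end share was 14.3% for peaks found in both, 27.4% with q under 1e-05, 21.9% and 49.004% at distances of 2500 bp and 10 kb, 55.8% and 23.9% for runs of at least 2 and 4 peaks, and 15.0 to 25% over the replicate lists. The share found in both replicates (30.7%) was 57.0% with q under 1e-05, 23.5% with reciprocal overlap of 50% and 19.9% for midpoints within 100 bp. Overlap in a single replicate gave 42.2 to 43.0%. The share was lower at the right end in all 7, which count largely the same peaks. At equal rank it was not lower there: it was 79.4% against 71.7% in the second rank band and 8.33% against 5.49% in the third. In the first and last bands the regions were equal. Comparisons with the left and middle parts other than of density, the cluster distance scaled to mean spacing and the agreement within rank bands were added after the data were seen. No paired analysis was possible because replicate numbers were shared only with input libraries, of which no values were used. Read depth is unknown, so its effect on weak peaks cannot be stated.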
